A study of Rattus norvegicus with 18 samples.

Results

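Medullary thyroid carcinomas of heterozygous MENX rats, aged 9 months, were profiled on Affymetrix arrays, and the variation from tumour to tumour is described. In the MENX strain Cdkn1b is mutated, which encodes the cell cycle inhibitor p27Kip1. The 6 arrays were chosen by their titles, which give the mutation as heterozygous and the age as 9 months, out of 18 arrays in the series. The strain is given as Sprague–Dawley white eye/Wistar–Kyoto, the animals were untreated and kept free of specified pathogens, and total RNA was amplified over whole transcripts before labelling with biotin. The labels give each array its own code, so the 6 arrays are taken as tumours of 6 animals, numbered 1 to 6 as the replicates are in the labels. They name no sex, litter, array date or dissection margin, and what the codes stand for is not stated. The codes of tumours 2 to 6 are consecutive, and that of tumour 1 is not. With 1 array per tumour, differences between animals, between the pieces of tissue taken and between array runs cannot be told apart, and in bulk tissue fewer cells of a type and less RNA per cell cannot be told apart either. No group was compared with another.

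Medullary thyroid carcinoma arises from C cells, the neuroendocrine cells of the thyroid that secrete calcitonin, a product of the gene Calca. C cells lie between follicles whose epithelium makes thyroglobulin, and the thyroid is bordered by the parathyroid glands, strap muscles, fat, trachea and oesophagus. Parathyroid cells need the transcription factor Gcm2 and secrete parathyroid hormone, encoded by Pth. Brown fat burns fatty acids in mitochondria through the uncoupling protein Ucp1. These facts are background for reading the gene names, not results of these data.

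Most genes differed little among the 6 tumours. Values are RMA signals on the log2 scale, so a difference of 1 is a doubling, and each gene is represented by its brightest probe set. Of 14506 genes with a probe set of their own, 11365 had a mean of at least 6.33, the 30th percentile of all probe sets, and the other 3141 were left out. The SD of a gene over the 6 tumours had a median of 0.108, and 10% of genes had an SD above 0.216. An SD of at least 0.5 was found for 195 genes (1.72%) and one of at least 1 for 30 genes (0.264%). The highest and lowest tumour were at least 1 apart for 315 genes, so that large differences were confined to a small part of the genes measured. Spread was smaller for brighter probe sets, with a median SD of 0.131 among the 2273 dimmest genes and 0.0832 among the 2273 brightest. The array medians lay between 7.61 and 7.64, and pairs of arrays correlated across genes between 0.973 (tumours 1 and 4) and 0.990 (tumours 2 and 3). Genes are not independent replicates, and these values only describe likeness of arrays.

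**Figure D1:**
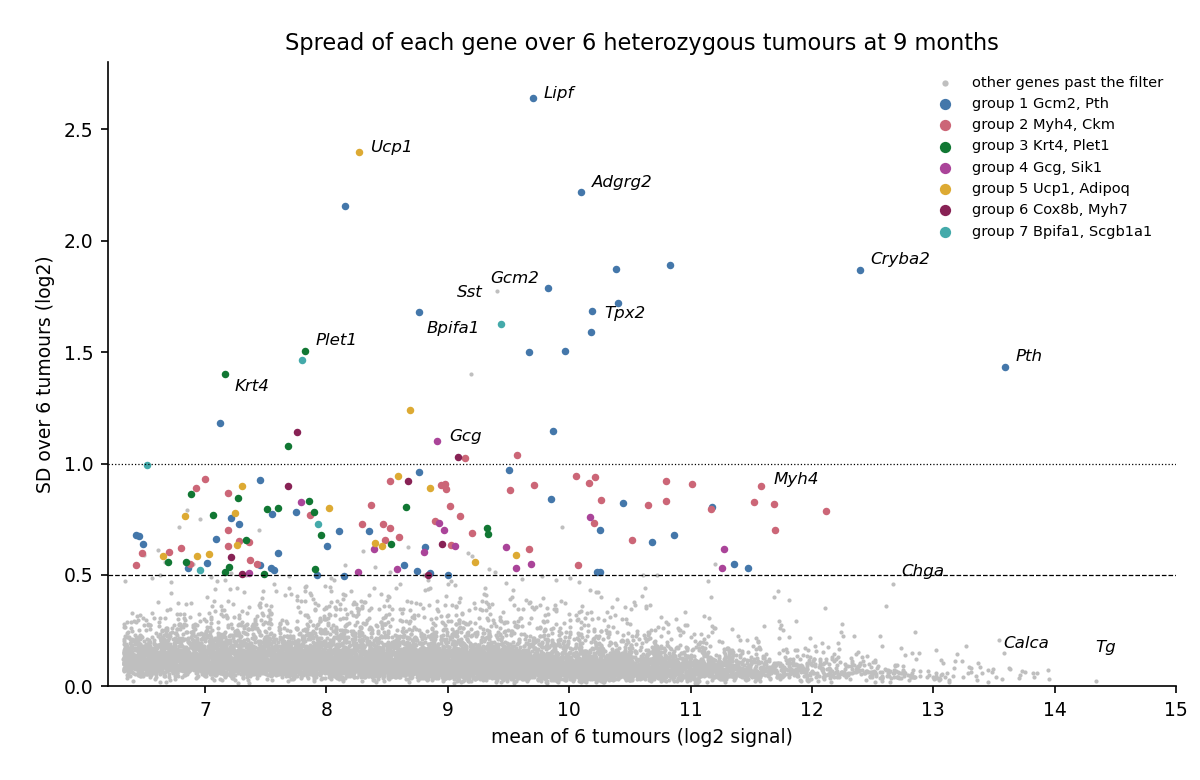
The SD over the 6 tumours (log2) is plotted against the mean of the 6 tumours (log2 signal), 1 point per gene, for the 11365 genes past the filter, with the 7 groups of genes that vary together in colour and lines at SDs of 0.5 and 1. Most points lie near 0.1, while Lipf, Ucp1 and Adgrg2 have SDs of 2.64, 2.40 and 2.22. Calca and Tg lie among the brightest genes, near the top of the signal scale, with SDs of 0.058 and 0.025.

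Tumour 1 stood apart on the first principal component of the centred genes. This component held 39.2% of the variance, with tumour 1 at 21.4, tumour 4 at -14.3 and the others between -7.17 and 2.09. The second held 20.8% and placed tumour 6 at -16.4 and tumour 4 at 8.92. The third held 18.4% and separated tumour 5, at -13.4, from tumours 2 and 3, at 8.80 and 8.38. In tumour 1, 71 genes lay at least 1 below the median of the other tumours and 30 at least 1 above it. Tumour 5 had 37 genes that far below the others, and tumour 6 had 42 that far above. Without tumour 1, 17 genes in place of 30 had an SD of at least 1, and without tumour 2 there were 45. The counts for an SD of at least 0.5 were 154 without tumour 1 and 203 without tumour 2.

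The brightest probe sets held the genes of thyroid follicles and C cells together. Tg, the thyroglobulin gene, had the highest mean of all genes, at 14.34, and ranged from 14.30 to 14.37. Calca ranged from 13.75 to 13.92, an SD of 0.058. Tg and Calca lie near the mean of the brightest probe set, 14.45. Whether the top of the signal scale narrowed their spread was not tested. Brightness also depends on the probes, so this ranking is one of signals and not of transcript numbers. Other genes among the 15 brightest are used by most cells: the ribosomal protein genes Rps29 and Rps4x, the translation factor Eef1a1, the chaperones Hspa8 and Pdia3, Actb for cytoskeletal actin, Gapdh of glycolysis, B2m of MHC class I, Fth1 for ferritin, Mt2A for metallothionein, Gnas for a signalling G protein and Igfbp7, a secreted binding protein. Their SDs lay between 0.033 and 0.15. Gapdh is matched by 16 probe sets and Hspa8 by 8, and such families with near-identical copies may share signal. Pth was the exception among the 15. It had a mean of 13.59 and an SD of 1.43.

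The 200 genes of largest SD were grouped by likeness of their 6 values, with average linkage on 1 minus Pearson's r and a cut at 0.3. The last gene inside this limit had an SD of 0.4955 and the first outside 0.4948. Groups of at least 5 genes numbered 7 and held 172 genes, while 28 genes fell outside. Pearson's r over 6 tumours is often high by chance: 3.93% of all pairs among the 11365 genes exceeded 0.8, and 16.1% among the 200. The groups are therefore a description of these 6 arrays, with no test, and r within a group is high because the grouping asked for it. The grouping rule did not use what the members are known to do, which is given below group by group. The gene lists were set with earlier results of these data known, so their overlap with the groups is not separate support.

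**Figure D2:**
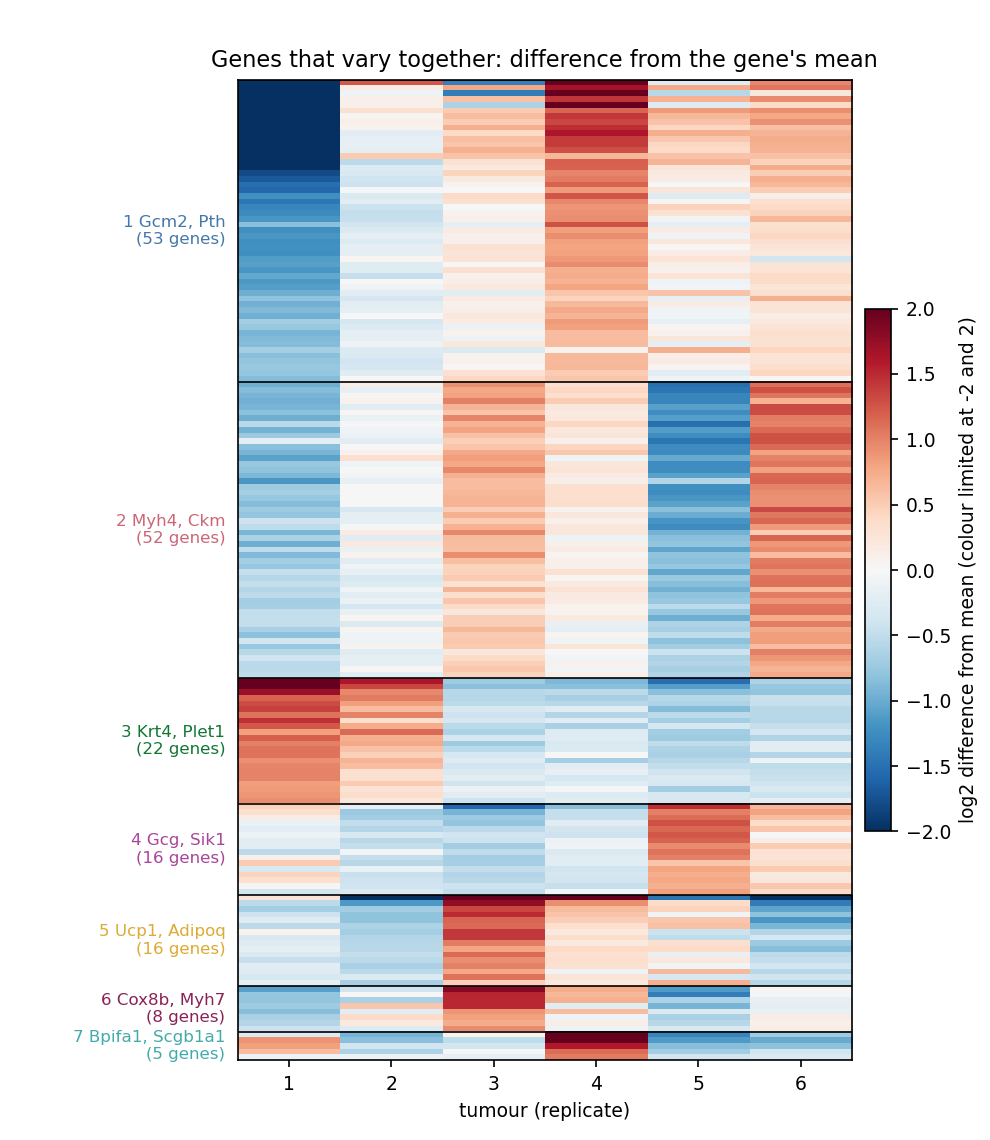
Each row is 1 of the 172 genes in the 7 groups and each column 1 tumour, with the colour giving the log2 difference from the gene's mean over the 6 tumours and reaching full strength at the ends of the scale. The 53 genes of group 1 are all lowest in tumour 1, the muscle genes of group 2 are mostly highest in tumour 6, and each of groups 4 to 7 has 1 tumour, 3, 4 or 5, in which most members are highest.

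Group 1, with 53 genes, held the parathyroid genes Pth, Gcm2, Kl and Gata3. Pth, the hormone gene, read 10.67 in tumour 1 and 14.12, 14.17, 14.26, 14.17 and 14.18 in tumours 2 to 6. Without tumour 1 the SD of Pth was 0.052. Those 5 values lie close to the mean of the brightest probe set, 14.45, and whether the top of the signal scale narrowed their spread was not tested. Gcm2, the transcription factor on which parathyroid cells depend, read 6.29 in tumour 1, below the floor of 6.33, and 9.88, 10.45, 11.25, 10.50 and 10.60 in tumours 2 to 6. Kl, which encodes the FGF23 co-receptor klotho, read 7.06, 9.80, 10.52, 11.36, 10.38 and 10.67 in tumours 1 to 6. Gata3, a transcription factor of parathyroid development, read 7.77, 9.60, 10.04, 11.04, 10.14 and 10.62. Tumour 1 was thus far below the others for these genes and tumour 4 the highest.

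Of the 8 genes of the parathyroid list past the floor, those 4 were in group 1, while Pvalb varied with muscle. The other 3 had small SDs. Casr, the calcium-sensing receptor of parathyroid cells and also of C cells, lay between 12.65 and 13.10, Clcn5, a chloride transporter gene, between 8.27 and 8.53, and Rgs5, a regulator of G protein signalling also found in pericytes, between 12.23 and 12.38. The median SD of the list was 1.02, and 0.299 without tumour 1. The list mean was 9.31 in tumour 1 and between 10.81 and 11.43 in the others.

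The other leading members of group 1 were also lowest in tumour 1 and highest in tumour 4, and most had larger ranges. Between these ends the order differed. Tumour 3 was second lowest for Lipf, Csap1 and Scgb3a1, and tumour 2 for Gcm2, Kl and Gata3. Lipf, the gastric lipase gene, had the largest SD of all genes, 2.64, and read 5.51, 10.95, 8.34, 13.29, 9.46 and 10.66 in tumours 1 to 6, a 219-fold range. Csap1, named for a salivary protein, read 12.16 in tumour 4 and between 5.94 and 8.38 in the other tumours, so that this gene marks tumour 4 more than tumour 1. Scgb3a1, a secretoglobin gene, was also highest in tumour 4, at 13.48, against 7.68 in tumour 1 and 9.75 to 10.76 in the rest. For the next 3 genes tumours 2 to 6 lay close together. Adgrg2, an adhesion G protein-coupled receptor gene, read 5.68 in tumour 1 and 10.25 to 11.76 in the others. Rhcg, an ammonia transporter gene, read 7.07 against 10.93 to 12.25. Cryba2, a crystallin gene, read 8.63 against 12.71 to 13.55. Tumour 1 was the lowest in each of these genes. For Lipf, Csap1 and Adgrg2 its value was under the floor of 6.33, so the 219-fold range of Lipf is a ratio of signals only.

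Further members with an SD above 1.4 had the same shape. Pcyt1b, of phosphatidylcholine synthesis, read 6.99 in tumour 1 and 10.49 to 11.74 in tumours 2 to 6. Sostdc1, a secreted antagonist of BMP and Wnt signals, read 7.10 against 9.98 to 11.57. Tnfrsf11b, the gene of osteoprotegerin, read 6.77 against 9.48 to 10.96, and Tnmd, the tenomodulin gene, 5.55 against 8.54 to 10.38. Cr2, a complement receptor gene of B cells and follicular dendritic cells, read 5.00 in tumour 1 and 8.32 in tumour 4. The tumour 1 values of Tnmd and Cr2 were under the floor of 6.33. No other member of the B and plasma cell list was in this group. Without tumour 1 the median SD of the 53 genes was 0.442 in place of 0.702, and 17 of them still had an SD of at least 0.5. The group also held Vdr, the vitamin D receptor gene, and Egf, the epidermal growth factor gene, Vdr being picked out after its values were seen.

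Tpx2, a spindle assembly factor counted in the cell division list, also moved with group 1. It read 6.89 in tumour 1 and 10.27, 10.91, 11.67, 10.61 and 10.78 in tumours 2 to 6, an SD of 1.68. The other cell division genes did not share this. Top2a, a topoisomerase of replicating chromosomes, read 7.16 in tumour 1, 6.45 in tumour 4 and 7.08 to 7.27 in the rest, and Plk1, a mitotic kinase, read 7.07, 6.42 and 6.92 to 7.14 likewise. The median SD of the 17 list members past the floor was 0.121. Whether the Tpx2 probe set reads Tpx2 alone was not tested.

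**Figure D3:**
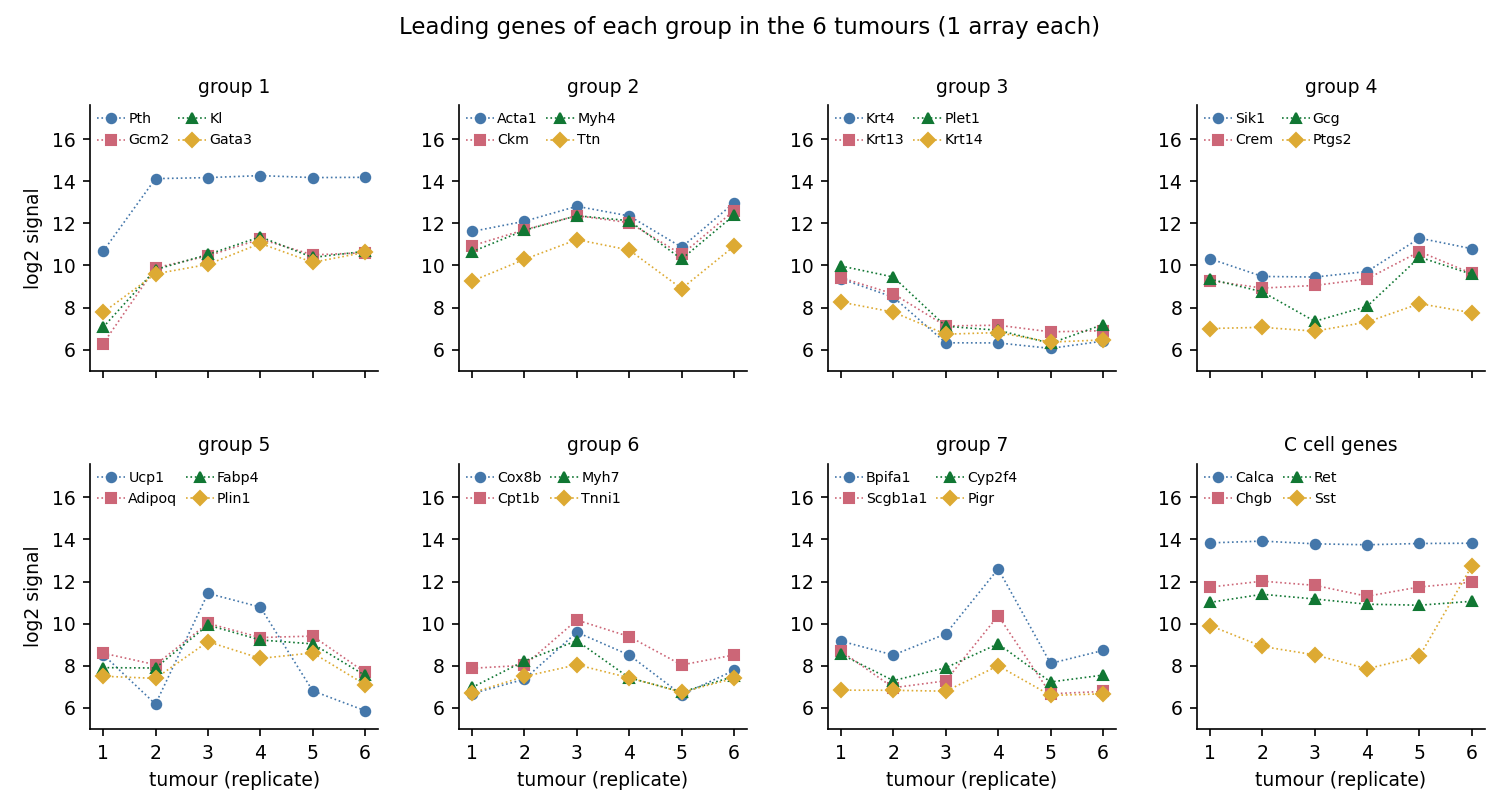
The log2 signal of 4 genes of each of the 7 groups and of 4 C cell genes is plotted for each of the 6 tumours, 1 array each; the dotted lines link points of a gene and imply no order of tumours. Pth drops to 10.67 in tumour 1, Bpifa1 reaches 12.60 in tumour 4, Ucp1 reaches 11.44 in tumour 3, and Calca stays between 13.75 and 13.92.

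Group 2, with 52 genes, was made of skeletal muscle genes to a large part: 18 of the 21 members of the skeletal muscle list past the floor were in it. Its leading gene Myot, for the Z-disc protein myotilin, read 8.59, 9.69, 10.48, 9.91, 8.07 and 10.67 in tumours 1 to 6. Ckm, muscle creatine kinase, read 10.93, 11.69, 12.36, 12.03, 10.52 and 12.60. Myh4, a fast myosin heavy chain, read 10.65, 11.67, 12.36, 12.12, 10.30 and 12.38. In these genes tumours 3 and 6 were high and tumours 5 and 1 low.

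Within group 2, tumour 6 was the highest for 47 of the 52 genes and tumour 5 the lowest for 44. Sarcomere genes such as Tnnc2 (8.75 to 11.12), Myl11 (8.66 to 11.15), Ttn (8.90 to 11.22), Tnnt3 (9.58 to 11.79) and Actn3 (9.58 to 11.56) were lowest in tumour 5 and, except Ttn, highest in tumour 6. Ttn was highest in tumour 3. Genes of calcium handling and of energy supply were highest in tumour 6 as well. Trdn, a calcium release protein, ranged from 7.86 to 10.11 and Atp2a1, the calcium pump of fast fibres, from 10.28 to 12.46. Mb, myoglobin, ranged from 9.56 to 12.10, Pygm, muscle glycogen phosphorylase, from 9.77 to 12.29, Ampd1, of AMP metabolism, from 7.70 to 10.42, and Ppp1r3a, a glycogen phosphatase subunit, from 5.91 to 8.32. Pgam2 and Eno3, the muscle isoforms counted in the glycolysis list, and Cox6a2, the muscle isoform counted in the oxidative phosphorylation list, were members too. Other genes of those lists varied less, with list medians of 0.112 and 0.0749. The highest and lowest tumour were 6.06-fold apart for Myot and 4.23-fold apart for Ckm. The median SD of the group was 0.778 and stayed between 0.669 and 0.868 when any 1 tumour was left out.

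Promoters of group 2 are shown because it holds many skeletal muscle genes, some of which are textbook targets of MEF2, a transcription factor of muscle. Windows from 250 bases before to 50 after the start were taken from RefSeq (GRCr8) for 44 of the 52 genes. Those motifs were chosen after the groups had been seen, so the shares below are a description. A match to the MEF2 site, searched on both strands, was found in 11 of the 44 windows (25.0%), against 102 of the 9397 windows of genes past the floor (1.09%) and 525 of 27457 windows (1.91%) when the first window of every symbol was taken. It was found in 0 windows of each of the other 6 groups, which hold 5 to 42 windows each. The MEF2 site can overlap a TATA box: in 6 of the 11 genes every match held the letters TATA, as in 39 of the 102. The CArG box, bound by serum response factor, was found in 3 of 44 windows (6.82%; Myh4, Acta1 and Fhl1) and in 1.18% of the windows of genes past the floor. The 250 bases before the start are printed for Ampd1 (chr2:193287082-193287331, plus strand, MEF2 match at -161), Myh4 (chr10:52421898-52422147, plus strand, MEF2 match at -196) and Acta1 (chr19:68784195-68784444, minus strand, CArG match at -94). Capitals mark the match, and positions count back from the base before the start.
Ampd1: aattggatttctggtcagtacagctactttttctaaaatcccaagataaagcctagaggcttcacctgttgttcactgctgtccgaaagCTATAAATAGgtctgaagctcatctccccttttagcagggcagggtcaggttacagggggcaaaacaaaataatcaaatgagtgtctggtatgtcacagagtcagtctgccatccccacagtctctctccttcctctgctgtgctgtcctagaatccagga
Myh4: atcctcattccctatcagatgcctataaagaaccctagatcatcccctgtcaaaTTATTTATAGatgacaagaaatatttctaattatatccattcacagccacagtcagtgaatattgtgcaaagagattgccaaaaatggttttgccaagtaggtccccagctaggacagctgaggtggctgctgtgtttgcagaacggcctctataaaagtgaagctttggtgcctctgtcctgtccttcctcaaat
Acta1: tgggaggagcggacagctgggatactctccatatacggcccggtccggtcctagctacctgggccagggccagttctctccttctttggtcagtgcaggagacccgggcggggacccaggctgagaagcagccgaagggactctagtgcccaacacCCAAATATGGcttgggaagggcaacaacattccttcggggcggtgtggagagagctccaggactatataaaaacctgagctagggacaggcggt
A match is a run of letters and was not tested as a binding site.

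Group 6, with 8 genes, held slow muscle and fatty acid oxidation genes. Cox8b, a cytochrome c oxidase subunit of muscle and brown fat, read 6.68, 7.36, 9.60, 8.51, 6.63 and 7.78 in tumours 1 to 6. Cpt1b, which carries fatty acids into mitochondria in muscle and brown fat, read 7.88, 8.02, 10.17, 9.39, 8.04 and 8.51. Myh7, the slow myosin heavy chain, read 6.97, 8.23, 9.19, 7.43, 6.76 and 7.50. All 8 genes were highest in tumour 3, where the fast fibre genes of group 2 were high but for 47 of 52 not highest. Fabp3, a fatty acid binding protein, ranged from 8.11 to 9.84, Myl3, a slow myosin light chain, from 6.56 to 8.04, Tnni1, slow troponin I, from 6.71 to 8.05, and Coq8a, of coenzyme Q synthesis, from 8.40 to 9.78. H19, an imprinted noncoding RNA, belonged to this group too, at 8.31, 9.09, 10.61, 9.74, 7.69 and 9.05, and its other probe set followed it with r = 0.969 over the 6 tumours. Without tumour 3 the median SD of the 8 genes was 0.546 in place of 0.768. The median profile of group 6 correlated with that of group 2 at r = 0.72 and with that of the fat genes of group 5 at r = 0.65, as a description over 6 tumours.

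Group 5, with 16 genes, was a fat group led by Ucp1. This brown fat gene read 8.54, 6.18, 11.44, 10.79, 6.81 and 5.87 in tumours 1 to 6, with tumours 3 and 4 far above the others and the lowest and highest 47.6-fold apart. The values of tumours 2 and 6 were under the floor of 6.33, so this fold is a ratio of signals only. Genes shared by white and brown fat had smaller ranges and a different order. Adipoq, the adiponectin gene, read 8.60, 8.05, 10.02, 9.34, 9.41 and 7.69. Fabp4, the fatty acid binding protein of adipocytes, read 7.91, 7.89, 9.94, 9.23, 9.04 and 7.54, and Plin1, which coats lipid droplets, 7.50, 7.40, 9.15, 8.35, 8.61 and 7.11. Tumour 5 was thus among the high tumours for Adipoq, Fabp4 and Plin1 but among the low ones for Ucp1.

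Group 5 also held Pck1, of glyceroneogenesis, at 7.29 to 10.46, Aqp7, a glycerol channel, at 6.50 to 8.80, Cidec, of lipid droplet fusion, at 7.68 to 9.42, Ppara, a regulator of fatty acid oxidation, at 6.24 to 8.24, and Slc36a2, an amino acid transporter of brown fat, at 6.41 to 8.06. Alb, the albumin gene, read 8.65 in tumour 3 and 6.56 to 7.46 elsewhere. Tumour 3 was the highest for 15 of the 16 genes. Without it, the median SD was 0.530 in place of 0.706. All 11 genes of the adipocyte list past the floor were among the 10% of genes with the largest SD, and 6 of them were in group 5. Scd, a desaturase gene of lipid synthesis, fell outside all groups, with 10.94, 8.30, 10.40, 9.73, 8.56 and 7.23 in tumours 1 to 6. Unlike the fat genes it was highest in tumour 1.

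Group 3, with 22 genes, held keratins of stratified squamous epithelium and was high in tumours 1 and 2. Its leading gene Plet1, a surface protein of epithelial progenitors, read 9.97, 9.45, 7.11, 6.92, 6.30 and 7.19 in tumours 1 to 6. Krt4 read 9.36, 8.49, 6.33, 6.32, 6.06 and 6.40, and Krt13 9.41, 8.65, 7.12, 7.16, 6.84 and 6.90. These keratins form a pair in the upper layers of non-cornified squamous epithelium. Krt14, of the basal layer, ranged from 6.36 to 8.26 and Krt15, also basal, from 6.997 to 9.22. Tumours 1 and 2 were the highest in these genes, which the grouping by the same values favours. Krt4 was under the floor of 6.33 in tumours 3, 4 and 5, and Plet1 in tumour 5.

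The further members of group 3 had the same pair of high tumours. Lgals7, a galectin of stratified epithelium, ranged from 6.92 to 9.05, Anxa1, annexin A1, from 8.72 to 10.42, and S100g, a calcium-binding protein, from 6.23 to 8.06. S100g was under the floor of 6.33 in tumours 3 and 4. Spp1, osteopontin, was highest in tumour 2, at 9.04, with 8.72 in tumour 1. Snrpd1, a core protein of the spliceosome, stood with this group at 9.74 and 9.65 in tumours 1 and 2 and 8.07 to 8.24 in the others. C3, complement component 3, ranged from 7.21 to 8.75. Without tumour 1 the median SD of the group was 0.545 in place of 0.740, and 12 of 22 genes kept an SD of at least 0.5. The median profiles of groups 1 and 3 correlated at r = -0.83 over the 6 tumours.

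Group 7, with 5 genes, was made of secretory airway genes. Bpifa1, an antimicrobial protein of airway mucus, read 9.18, 8.51, 9.52, 12.60, 8.11 and 8.73 in tumours 1 to 6. Scgb1a1, the club cell secretoglobin, read 8.70, 6.96, 7.29, 10.38, 6.67 and 6.78. Cyp2f4, a cytochrome P450 of club cells, read 8.55, 7.29, 7.91, 9.04, 7.23 and 7.56. Clca1, of mucus-making cells, ranged from 5.67 to 8.12 and Pigr, which carries IgA across epithelia, from 6.59 to 8.002. Clca1 was under the floor of 6.33 in tumours 2, 3, 5 and 6, and its mean was past it only through tumour 4. Its values in tumours 5 and 6, 5.67 and 5.69, were close, so their order rests on signals under the floor. Tumour 4 was the highest and tumour 5 the lowest for all 5 genes, and tumour 1 was next to tumour 4 for all but Bpifa1. Foxj1 and Tekt1, the genes of ciliated cells in the same list, varied less, at 7.44 to 7.76 and 6.14 to 6.73. Without tumour 4 the median SD was 0.551 in place of 0.993. Of the genes outside the group, the one most like Bpifa1 was Or2y11, an olfactory receptor gene, at r = 0.95. Or2y11 was highest in tumour 4 and under the floor of 6.33 in tumours 1, 5 and 6. Agr2 and Dmbt1, both known from mucosal epithelia, were also among the 5 most like Bpifa1, at r of 0.90 each. They read 8.11 and 7.83 in tumour 4 and at most 7.15 and 7.07 in the others. The gene most opposed to Bpifa1 was Top2a, at r = -0.98.

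Group 4, with 16 genes, was highest in tumour 5 for all its members and lowest in tumour 3 for 11. Gcg, the proglucagon gene, led it with 9.35, 8.75, 7.34, 8.05, 10.39 and 9.58 in tumours 1 to 6. Sik1, a kinase gene induced by cyclic AMP, read 10.32, 9.47, 9.45, 9.71, 11.29 and 10.79. Crem, a transcription factor gene of the cyclic AMP response, read 9.28, 8.92, 9.05, 9.36, 10.65 and 9.62. Tumour 5 stood above the others in all 3, and tumour 6 was second.

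The same held in part for the further members of group 4. Vash2, of the vasohibin family, ranged from 6.85 to 8.79, Fam110c from 8.38 to 10.12, Slc35d1, a nucleotide sugar transporter, from 8.13 to 10.20, and Ackr3, an atypical chemokine receptor, from 10.57 to 12.22. Bhlha15, a transcription factor of secretory cells, read 10.30 in tumour 5 and 8.64 to 9.06 in the others. Ptgs2, cyclooxygenase-2, ranged from 6.88 to 8.18, and Hhex, a transcription factor of the follicular list, from 10.76 to 12.05. Hhex was the one gene of the 11 past the floor in the thyroid follicular list that joined any group. Outside the group, the genes most like Gcg were Pgf and Hgf, both growth factors, with r of 0.95 and 0.94. Without tumour 5 the median SD of the group was 0.430 in place of 0.617, and 4 of 16 genes kept an SD of at least 0.5.

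The promoter of Sik1 is shown because Sik1 and Crem are textbook targets of CREB, which binds the cyclic AMP response element. The whole element TGACGTCA, searched on both strands as were the others, was in 0 of the windows of groups 1 to 7, and in 2.88% of the windows of genes past the floor. The shorter TGACG, which the whole element contains, was in 4 of the 11 windows of group 4 (36.4%; Sik1, Slc35d1, Crem and Kpna2) and in 29.99% of the windows of genes past the floor. The share in group 4 is therefore near that of other genes. The 250 bases before the start of Sik1 (chr20:9958647-9958896, minus strand, RefSeq GRCr8) hold the short element as CGTCA, on the opposite strand, at -191 and -180, both in capitals.
Sik1: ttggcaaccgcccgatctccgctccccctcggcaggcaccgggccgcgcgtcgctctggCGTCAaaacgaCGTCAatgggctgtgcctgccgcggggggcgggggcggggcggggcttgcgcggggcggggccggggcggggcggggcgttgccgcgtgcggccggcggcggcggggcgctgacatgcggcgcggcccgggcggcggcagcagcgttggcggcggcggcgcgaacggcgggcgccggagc
No match says only that the letters are not in this window.

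Among the 28 genes outside the groups, Sst had the largest SD, 1.77. This gene of the peptide hormone somatostatin read 9.91, 8.92, 8.52, 7.86, 8.46 and 12.75 in tumours 1 to 6. Tumour 6 alone was high, and without it the SD was 0.760. Pyy, the peptide YY gene, had the same single high tumour, with 7.81 in tumour 6 and 6.08 to 6.54 in the rest. Its value in tumour 3 was under the floor of 6.33. Gal, the galanin gene, was high in tumour 2 alone, at 7.63 against 6.00 to 6.603. Outside tumour 2 its values were under the floor of 6.33, except 6.603 in tumour 4. Its mean was past the floor only through tumour 2. The high tumour was thus tumour 6 for Sst and Pyy, tumour 2 for Gal and, as given above, tumour 5 for Gcg. The neuropeptide and hormone list had a median SD of 0.155 over its 17 genes past the floor, and of 0.477 with the floor at the 50th percentile. Of the 17, 6 were among the 10% of genes with the largest SD and 4 had an SD of at least 0.5.

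Calca and most other C cell genes varied less than these hormones, most of them in a shared order. Scg2 (SD 0.717) and Syt1 (SD 0.715) varied more than Pyy (0.611) and Gal (0.590). Of 24 C cell and neuroendocrine genes past the floor, 18 were lowest in tumour 4, and 14 were highest in tumour 2 and 7 in tumour 6. Of the 195 genes with an SD of at least 0.5, 11 were lowest in tumour 4. In those 195, 9 were highest in tumour 2 and 57 in tumour 6. Shares over all genes past the floor were not counted. The C cell list mean was 9.87 in tumour 4 and 10.47 in tumour 6. The median SD was 0.253, against 0.108 for all genes, and 14 of the 24 were among the 10% of genes with the largest SD. Chgb, a granin of secretory granules, read 11.74, 12.02, 11.82, 11.30, 11.74 and 11.97 in tumours 1 to 6. Ret, the receptor kinase gene mutated in human medullary carcinoma, read 11.01, 11.40, 11.17, 10.93, 10.88 and 11.06. Both were highest in tumour 2. Calcb, a gene of calcitonin gene-related peptide, read 9.10, 9.42, 8.60, 8.53, 8.81 and 9.47. Scg2, another granin, read 10.21, 10.43, 9.54, 9.00, 9.49 and 10.95.

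Syt1 and Chga departed from that order. Syt1, a calcium sensor of vesicle release, was high in tumour 6 alone, at 8.20 against 6.29 to 6.72, like Sst and Pyy. Chga, the chromogranin A gene, read 11.82, 12.57, 12.67, 13.15, 12.85 and 12.93 in tumours 1 to 6. It was thus highest in tumour 4, where 18 list genes were lowest, and lowest in tumour 1. The 5 genes most like Chga among 502 genes with an SD of at least 0.3 were Egf, Gata3, Cntn1, Tspan6 and Tnmd, with r from 0.990 to 0.996 over the 6 tumours. Gata3 is in the parathyroid list, and all 5 were members of group 1. Chromogranin A is made by parathyroid cells as well as by C cells. The 3 most opposed were Slfn4, Sdc1 and Wfdc18, with r from -0.94 to -0.97. Without tumour 1 the SD of Chga was 0.227 in place of 0.459.

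Cdkn1b itself, the gene mutated in these rats, varied little. It read 10.71, 10.90, 10.82, 10.69, 10.67 and 10.89 in tumours 1 to 6, an SD of 0.101, near the median of all genes. The signal does not tell the mutant from the wild-type transcript. The genes most like it were Gad1 and Gad2, which make the transmitter GABA, Gabre, a GABA receptor subunit, Cdk5r1, an activator of the kinase Cdk5, and Cd55, an inhibitor of complement, with r from 0.90 to 0.96. Gad2 read 6.58, 7.42, 6.95, 6.33, 6.25 and 8.21, high in tumours 6 and 2, and Gad1 7.57, 8.16, 7.84, 7.65, 7.53 and 8.29. In tumour 5 Gad2 was under the floor of 6.33. The most opposed was Per1, a clock gene, at r = -0.90. With this many genes and 6 tumours, such values of r are found for many genes.

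**Figure D4:**
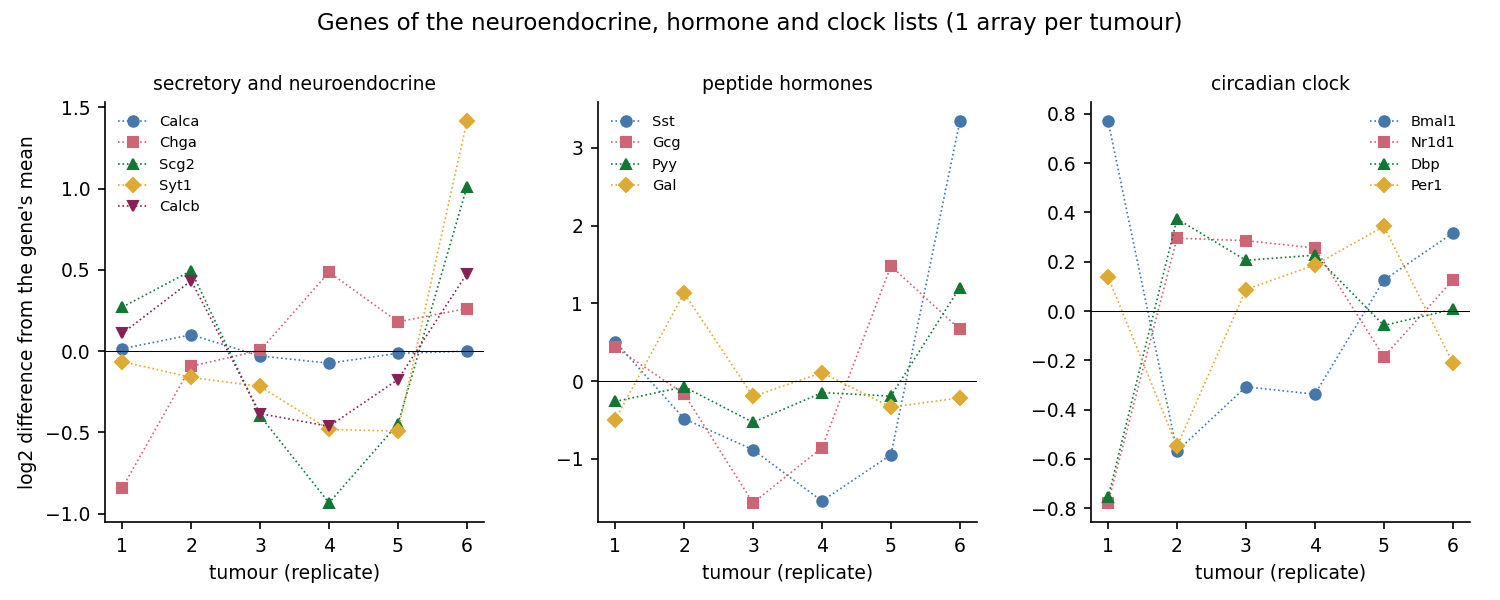
The log2 difference from the gene's mean over the 6 tumours is plotted by tumour for genes of secretion, peptide hormones and the circadian clock, 1 array per tumour; dotted lines link points of a gene and imply no order. Chga is lowest in tumour 1 and highest in tumour 4, Scg2, Syt1, Sst and Pyy peak in tumour 6, Gcg in tumour 5 and Gal in tumour 2, and in tumour 1 Bmal1 is high while Nr1d1 and Dbp are low.

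Circadian clock genes set tumour 1 apart in both directions. Bmal1, an activator of the clock, read 9.58 in tumour 1 and 8.24, 8.50, 8.47, 8.93 and 9.12 in tumours 2 to 6. Nr1d1, a repressor of Bmal1, read 9.46 in tumour 1 and 10.54, 10.53, 10.50, 10.06 and 10.37. Dbp, a clock output gene, read 10.41 against 11.54, 11.38, 11.40, 11.11 and 11.18. Tumour 1 was the highest for Bmal1 and the lowest for Nr1d1 and Dbp, and 8 of the 15 clock genes past the floor were lowest there. Of the 195 genes with an SD of at least 0.5, 66 were lowest in tumour 1. The share over all genes past the floor was not counted. The median SD of the clock list was 0.324, and 12 of its 15 genes were among the 10% of genes with the largest SD. Without tumour 1 the median was 0.183. Clock genes normally change with the time of day, and the labels give no time of sampling.

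Genes of the unfolded protein response were lowest in tumour 6. Of 19 genes past the floor, 18 had their lowest value there and 12 their highest in tumour 1. Of the 195 genes with an SD of at least 0.5, 19 were lowest in tumour 6 and 27 highest in tumour 1. Shares over all genes past the floor were not counted. Creld2, induced by stress of the endoplasmic reticulum, read 11.17, 10.77, 10.60, 10.66, 11.28 and 9.87 in tumours 1 to 6. Sdf2l1, a component of the same compartment, read 10.57, 9.91, 9.59, 9.79, 9.76 and 9.04. Manf, a secreted stress protein, ranged from 9.88 to 10.88 and Ddit3, the transcription factor CHOP, from 8.66 to 9.77. The exception was Dnajb9, a chaperone gene. The median SD was 0.223, and 0.148 without tumour 6. The list mean was 10.999 in tumour 6 and 11.36 to 11.62 in the others.

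**Figure D5:**
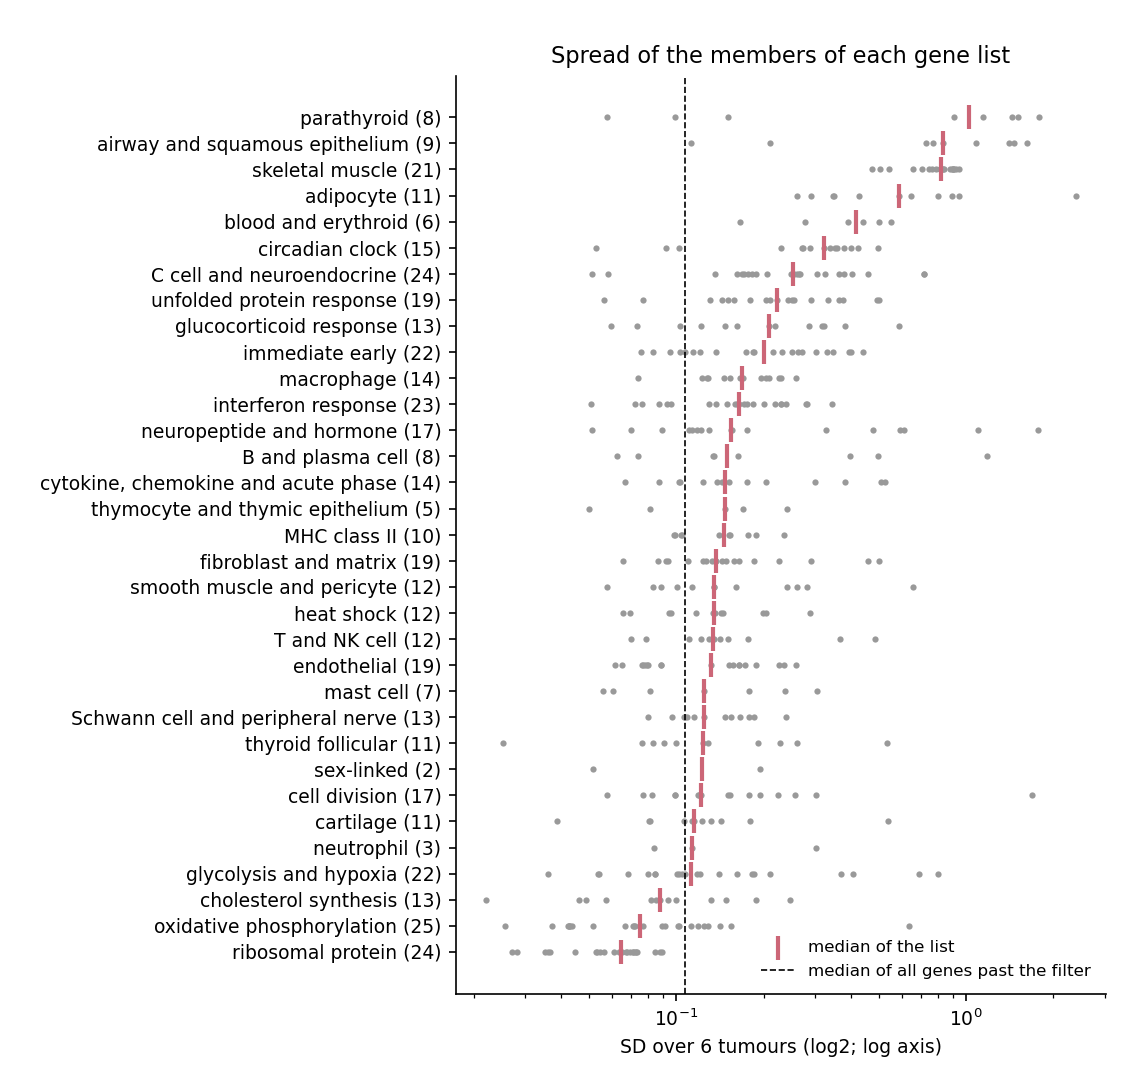
Each grey point is the SD of 1 gene over the 6 tumours (log2, log axis) in 33 gene lists, ordered by the median of the list (red bar), with the number of genes past the filter in brackets and a dashed line at the median of all genes. Parathyroid, airway and squamous, skeletal muscle and adipocyte lists have medians of 1.02, 0.831, 0.818 and 0.589, and ribosomal protein genes lie lowest at 0.0643.

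Over the 33 gene lists, 461 entries were past the floor. The largest median SDs were those of the parathyroid list (1.02), the airway and squamous list (0.831), skeletal muscle (0.818), adipocytes (0.589) and blood (0.416). These 5 lists hold cells other than C cells. In the blood list Hbb, a globin gene, read 11.17, 10.37, 10.73, 11.57, 11.59 and 11.77 in tumours 1 to 6, and Alas2, of haem synthesis in red cells, ranged from 6.68 to 7.80. All 6 genes of the list past the floor were lowest in tumour 2 or 3. Of the 195 genes with an SD of at least 0.5, 13 were lowest in tumour 2 and 16 in tumour 3.

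Immune and stromal lists varied less. The median SD was 0.168 for macrophage, 0.134 for T and NK cell, 0.137 for fibroblast and 0.132 for endothelial genes. Yet 13 of 14 macrophage genes past the floor were highest in tumour 1. Of the 195 genes with an SD of at least 0.5, 27 were highest in tumour 1. The share over all genes past the floor was not counted. Cd68, of macrophage lysosomes, read 8.72 in tumour 1 and 8.05 to 8.27 elsewhere. Kdr, a VEGF receptor of endothelium, likewise read 10.68 in tumour 1 and 10.07 to 10.31 elsewhere, and without tumour 1 the median SD of the endothelial list was 0.0875. In the interferon list, Mx1 and Mx2, antiviral genes, were highest in tumour 2, at 9.61 and 9.39. Jchain, of secreted antibodies, ranged from 6.09 in tumour 2 to 7.43 in tumour 1. Macrophage genes were thus highest in the tumour in which the parathyroid genes were lowest, and their part in that difference was not tested.

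Follicular thyroid genes had a median SD of 0.124, against 0.108 for all genes. Of the 11 past the floor, Hhex, Slc5a5 and Dio1 were among the 10% of genes with the largest SD, with SDs of 0.533, 0.261 and 0.228. Slc5a5, the iodide transporter, ranged from 10.54 to 11.19, Dio1, a deiodinase, from 12.15 to 12.82, and Foxe1, a thyroid transcription factor, from 10.82 to 11.31. Ribosomal protein genes had a median of 0.0643 with 0 of 24 among the 10% most variable genes, and oxidative phosphorylation genes one of 0.0749 with 1 of 25, Cox6a2. Cell division genes (0.121) and cholesterol synthesis genes (0.0879) also had medians near or under that of all genes. Of the immediate early genes, which respond within minutes to stimulation, Nr4a1 ranged from 7.08 to 8.34 and Egr1 from 9.17 to 10.18, with a list median of 0.200. In the glucocorticoid list Zbtb16 had the largest SD, 0.587, with 9.91 and 9.88 in tumours 2 and 3 and 8.53 in tumour 6.

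Among genes of middle to high signal, the 10 smallest SDs lay between 0.0133 and 0.0194. Map3k4, a kinase of stress signalling, ranged from 9.03 to 9.07, and Dnajc14, a chaperone gene, from 9.80 to 9.84. Ep300, a histone acetyltransferase, Klf3, a repressor, Setd5, a chromatin protein, Trip12, a ubiquitin ligase, Dkc1, of ribosomal RNA modification, Cant1, Rmnd1 and Tfpt were the others.

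The means of 12 pairs of gene lists were correlated over the 6 tumours, with exact permutation of all 720 pairings, two-sided. Parathyroid and skeletal muscle means had Pearson's r = 0.53 (exact p = 0.317, adjusted over 12 pairs 0.827) and Spearman's rho = 0.43 (exact p = 0.419, adjusted 0.857). Without the 2 tumours farthest from the parathyroid median, tumours 1 and 4, r was 0.30. C cell and parathyroid means had r = -0.01 (exact p = 0.997, adjusted 0.997) and rho = -0.31 (exact p = 0.564, adjusted 0.857). Without tumours 2 and 6, r was -0.64. Over the 12 pairs r ran from -0.39 (C cell with unfolded protein response) to 0.53, and the smallest exact p was 0.260, for follicular with endothelial genes. None of the 12 passed an adjusted exact p of 0.05, and 6 tumours leave wide room for any r, so no relation between the lists was shown.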

How the data were processed

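RNA of 6 tumours was measured on 6 Affymetrix arrays. The authors deposited log2 values. Per the submitters' processing notes, RMA and version 1.3.0.187 of Affymetrix Expression Console were used, in an order not given in the sources used here. Depth does not apply to arrays, so their number sets the precision. The 12 columns of other groups were used only in 1 alternative, to pick probe sets.

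Of 29214 probe sets, the platform annotation gives 15310 a single symbol, 323 several and 13581 none. The probe set of highest mean stood for each gene (527 genes had several), and means under 6.33 were left out. SDs, principal components, groups and Pearson's r were computed in Python 3.11.15 with numpy 2.4.6, pandas 2.3.3 and SciPy 1.17.1, and drawn with matplotlib 3.10.9. Only the list means were tested, by exact permutation. Scripts were tested on simulated data.

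Members, gene lists and choices were set with earlier results of these data known. Of 597 list entries 518 were measured. Mki67, Xist and Y-linked genes had no probe set of that name and were not analysed here. Genes named were Cdkn1b, Calca, Calcb, Chga, Chgb, Ret, Tg, Pth and Gcm2, the 15 brightest, the 30 of largest SD, up to 4 per list and 10 per group by SD, the 10 of smallest SD at middle to high signal, and the 5 most alike and 3 most opposed genes (SD at least 0.3) of Chga, Cdkn1b and each group's leading gene. Vdr, Casr, Clcn5, Rgs5, Foxj1, Tekt1, Dnajb9, Krt14, Acta1, Fhl1 and Kpna2 fall outside this rule and were chosen after their values were seen. Alternatives were other filters, other treatments of probe sets, array centring, quantile normalization, the median absolute deviation, z scores, Spearman's rho and leaving out each tumour. Promoter windows and start sites are those of RefSeq (GRCr8).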

Additional observations from a re-analysis of the deposited data

Results flagged for a closer look

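Single tumours far from the other 5 were looked for with Dixon's ratio, the gap from the highest or lowest value to its neighbour divided by the whole range. Chance passes the limit in about 1 of 20 sets of 6 values, and 659 of the 11365 genes (5.80%) passed it. Of the 255 genes named by the rule, which favours variable genes, 26 passed, and of 33 list means 5.

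Tumour 1 was the low one for the parathyroid genes Pth (ratio 0.960), Gcm2 (0.725) and Kl (0.637) and for the mean of the parathyroid list (0.704). It was also the low one for Cryba2 (0.830), Adgrg2 (0.751), Rhcg (0.745), Pcyt1b (0.738), Tpx2 (0.706), Tnfrsf11b (0.647), Sostdc1 (0.646) and Egf (0.634), all of the group led by Lipf, and for the mean of the clock list (0.705). Tumour 1 was the high one for Cd68 (0.672), Rps4x (0.692) and the means of the macrophage list (0.769) and the MHC class II list (0.688).

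Tumour 4 was the high one for the mucosal genes Pigr (0.822), Agr2 (0.733), Dmbt1 (0.702) and Bpifa1 (0.687). It was the low one for the cell division genes Top2a (0.773) and Plk1 (0.694), for Plcxd3 (0.720) and for Crmp1 (0.643), a gene of neurons. Pigr, Agr2 and Dmbt1 were among the genes picked as most like Bpifa1, and Top2a, Plcxd3 and Crmp1 as most opposed to it. Their places in tumour 4 follow largely from that choice and are not separate findings. Top2a was also named by the cell division list, and Pigr as a member of the group led by Bpifa1. In tumour 5 Bhlha15 was high (0.749). In tumour 6 the vesicle gene Syt1 (0.776) and the hormone gene Pyy (0.737) were high. In tumour 2 Gal (0.627) was high, and Gal passed the floor only through that tumour. Dnajc14 (0.692), highest in tumour 2, is one of the steadiest genes, with a whole range from 9.80 to 9.84. The mean of the oxidative phosphorylation list was low in tumour 2 (0.637), at 10.997 against 11.061 to 11.097 in the others.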

How the results depend on the processing

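No paired analysis was possible because a single group is described and no groups are compared. The number of genes with an SD of at least 1 was 30, between 23 and 31 under other settings, and 17 (without tumour 1) to 45 (without tumour 2) when a tumour was left out. The number with an SD of at least 0.5 was 195, between 131 and 210, and 154 to 203 likewise. With the filter at the 50th percentile, which leaves fewer genes, the neuropeptide and hormone list had a median SD of 0.4769 in place of 0.155. The SD of Dnajc14 was 0.0361 in place of 0.0136 after quantile normalization. Genes and lists were flagged only where the change was at least the main value, which a fall does not reach. Falls were seen under other settings, which include the median absolute deviation. The lowest spread was 0.0467 for Pth (main 1.43), 0.45 for Cryba2 (1.87), 0.26 for Krt4 (1.40) and 0.317 for the parathyroid list (1.02). Ucp1 (2.39, main 2.40) and the skeletal muscle list (0.815, main 0.818) fell little. Correlations of list means changed sign in 21 of 168 alternatives. The lowest adjusted p of the exact permutation test in any alternative was 0.1. With 1 tumour left out, too few pairings remain for a single pair to pass 0.05 after adjustment. Those runs therefore cannot decide whether a relation passes. C cell with parathyroid means had r = 0.0089 without a filter, 0.0296 after quantile normalization, 0.034 on z scores and -0.3135 to 0.4033 without 1 tumour. C cell with endothelial means had 0.0645 after median centring, rho = 0.20 and r = -0.2085 to 0.0788 without 1 tumour. Oxidative phosphorylation with ribosomal protein means had 0.0050 after centring, 0.1504 after quantile normalization, 0.2569 on z scores and -0.5492 to 0.0496 without 1 tumour. C cell with cell division means had -0.0144 with the filter at the 50th percentile. The cell division mean includes Tpx2 (SD 1.68), which varied far more than the other members of that list. Skeletal muscle with adipocyte means had rho = -0.0857 and r = -0.3366 to 0.5697 without 1 tumour. Leaving out 1 tumour gave C cell with skeletal muscle -0.0685 to 0.5256, with unfolded protein response -0.6404 to 0.5054, and follicular with endothelial -0.0283 to 0.9638. The heat shock list had a median SD of 0.0886 without tumour 6 in place of 0.135. The cause was not tested. Signal over background is not given, so low genes rest on the filter alone.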

Other observations

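Beyond the genes with a single symbol, 8400 probe sets with several or no symbols had a mean past the same floor. Of these, 10 had an SD of at least 1 over the 6 tumours and 87 one of at least 0.5, with a largest SD of 1.75 and a median of 0.126. They were not named here.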
